A study of Mus musculus with 12 samples.

Results

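The genes described here are the G1 cyclins, their kinases and their inhibitors in mouse embryonic stem (ES) cells that lack Dicer, the nuclease that cuts microRNAs from their precursors. All array probes that carry the name of 1 of 10 genes were taken: the D-type cyclins Ccnd1, Ccnd2 and Ccnd3, the E-type cyclins Ccne1 and Ccne2, the kinases Cdk4, Cdk6 and Cdk2, and the inhibitors Cdkn1a (p21) and Cdkn1b (p27). These names matched 19 of the 41174 probes on the array, each 60 bases long. Of these probes, 18 passed the filter on dim signals, and the 10 genes were all among the 20048 genes tested. The study hybridised total RNA to 12 Agilent 2-colour arrays, and each pairing of RNAs was run 2 times with the dyes exchanged. The 12 arrays thus gave 6 log2 ratios: 3 comparisons, each in the Dicer-null clones 27G5 and 27H10.

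The groups were wild-type ES cells (1 RNA), Dicer1-null ES cells of each clone (Dicer-null), and cells of each clone labelled as overexpressing Dnmt1 or Dnmt3a and Dnmt3b, the enzymes that methylate DNA. The last 2 groups lack Dicer1 too. All cells grew on gelatin in medium with leukemia inhibitory factor, which holds ES cells in the undifferentiated state. Each clone is a single line, the labels name no separate cultures within a clone, and the promoter driving the methyltransferases is not given in the sources used here. The first comparison set Dicer-null cells against wild type and asks what changes without Dicer. The other comparisons set the cells of each overexpression label against their own Dicer-null parent. Every value below is a log2 ratio, its error is the standard deviation (SD) over clones, n = 2 clones, and adjusted p values are from limma with Benjamini-Hochberg adjustment over all genes tested. A gene was called higher or lower at an adjusted p under 0.05. The fit pools each gene's spread over the comparisons, so p does not rest on the printed SD alone.

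Passage from G1 into S phase depends on cyclin-dependent kinases. D-type cyclins bind Cdk4 and Cdk6, E-type cyclins bind Cdk2, and both kinds of complex phosphorylate the retinoblastoma proteins, which releases E2F transcription factors. Cdkn1a and Cdkn1b bind cyclin-kinase complexes and hold back the E-type complexes in particular. Mouse ES cells are known for a short G1 phase, for low D-type cyclin activity and for Cdk2 activity that persists through the cycle, and microRNAs of the miR-290 and miR-302 clusters are known to repress inhibitors of this step.

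No microRNA was measured. The mature sequences of the families published as regulators of these genes are shown because Dicer is needed to make them, and because their seeds, bases 2 to 8, fix the target letters searched for below. The seeds are in capitals, and the sequences are those of RefSeq (assembly GRCm38.p6). The miR-290 and miR-302 clusters hold the seed AAGUGCU, shared by 5 of the listed microRNAs, of which 3 are shown first, and the close seeds AAGUGCC and AAGUGCA. Cdkn1a is a published target of this group.
mmu-miR-291a-3p: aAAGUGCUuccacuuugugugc
mmu-miR-294-3p: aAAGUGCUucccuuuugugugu
mmu-miR-302b-3p: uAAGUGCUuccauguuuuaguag
mmu-miR-290a-3p: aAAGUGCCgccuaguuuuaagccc
mmu-miR-291b-3p: aAAGUGCAuccauuuuguuugu
The miR-15 and miR-16 family and let-7, whose seeds are unlike these, are published regulators of D-type cyclins, Ccne1 and Cdk6.
mmu-miR-15a-5p: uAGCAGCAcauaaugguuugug
mmu-miR-16-5p: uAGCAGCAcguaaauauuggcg
mmu-let-7a-5p: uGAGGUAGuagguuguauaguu

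Dicer1 itself, the check of the labels, was lower in Dicer-null cells at both of its probes, by -0.53 at the brighter and by -4.07 at the other. The overexpression labels were not borne out at the probes of the methyltransferase genes. In cells labelled Dnmt1, the Dnmt1 probe read 0.10 in clone 27G5 and 0.43 in clone 27H10 (adjusted p = 0.111). In cells labelled Dnmt3a,3b, Dnmt3b fell by -1.04 (adjusted p = 0.0341), and the 3 Dnmt3a probes read -1.03, -0.72 and 0.20. Neither was particular to that label: in cells labelled Dnmt1, Dnmt3b read -1.06 and the Dnmt3a probes -1.34, -1.04 and 0.05. The Dnmt1 probe averaged 0.27 under both labels. Whether these probes lie within the introduced sequences is not given in the sources used here. The cells are therefore called Dnmt1-labelled and Dnmt3a,3b-labelled throughout. Median spot signals ranged from 112 to 135 (green) and from 234 to 334 (red), with 61.6% to 68.6% of probes well above background. The overexpression arrays of clone 27G5 shared 1 slide and those of clone 27H10 another, so in those comparisons the clone and its slide cannot be told apart. All arrays with wild-type RNA shared the third slide.

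Markers of other cells moved with the comparisons. Of all genes, 20.4% were called higher and 20.1% lower in Dicer-null cells. The shares were 12% and 11% in Dnmt1-labelled cells, and 10.4% and 10.8% in Dnmt3a,3b-labelled cells. Of 12 fibroblast markers, 9 were lower and 1 higher in Dicer-null cells than in wild type, with a median of -1.01, and their summed signal was 68210 to 81010 in wild type against 15870 to 22700 in Dicer-null cells. The muscle-type cytoskeletal gene Tagln read -4.20 and the collagen Col1a1 -4.09 at its brightest probe, with 0.01 at another. The highest value of this list was 2.02. The matrix gene Postn was not well above background in either Dicer-null RNA. Over the Dicer-null parent, 2 fibroblast markers were higher and 2 lower in Dnmt1-labelled cells, and 2 higher and 1 lower in Dnmt3a,3b-labelled cells. Dcn read -2.454 and -2.515 there, Pdgfrb 0.763 in the first and Tagln 0.947 in the second. Of 12 trophoblast markers, 7 were lower and 1 higher in Dicer-null cells than in wild type, and 8 were higher in Dnmt1-labelled and 9 in Dnmt3a,3b-labelled cells than in Dicer-null cells, with none lower (0). Their summed signal was 32440 to 65290 in Dicer-null cells, 110900 to 278600 in Dnmt1-labelled, 109600 to 220800 in Dnmt3a,3b-labelled and 92760 to 213200 in wild-type cells. The prolactin-family gene Prl2c3 was at 4.46 in the Dnmt1 comparison and at 4.67 in the Dnmt3a,3b comparison, and at no less than 1.81 and 2.03 at its other probes. The ES cell label was borne out by its own markers: 5 of 6 were higher in Dicer-null cells than in wild type and the other was not called, with Nanog at 1.45 and Klf4 at 0.82, and all 6 were above background in every RNA. Fibroblasts, trophoblast cells and differentiating ES cells also make G1 cyclins and inhibitors. The part of these marker shifts in the values below was not tested. In such bulk RNA, fewer cells of a type and less RNA per cell cannot be told apart.

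In Dicer-null cells, the inhibitors Cdkn1a and Cdkn1b and cyclin Ccnd2 rose, and cyclins Ccnd1 and Ccne1 fell. The 3 kinases, Ccnd3 and Ccne2 did not pass the test. Thus 5 of the 10 genes were called, against 40.4% of all 20048 genes, a similar share. By direction, 3 of 10 were higher and 2 of 10 lower, against 20.4% and 20.1% of all genes. The median size of the change, without its sign, was 0.53 over the 10 genes and 0.27 over all genes. The same 5 genes, and no other of the 10, had the same sign on all 4 arrays of the comparison, a condition that 63% of all genes met.

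**Figure D1:**
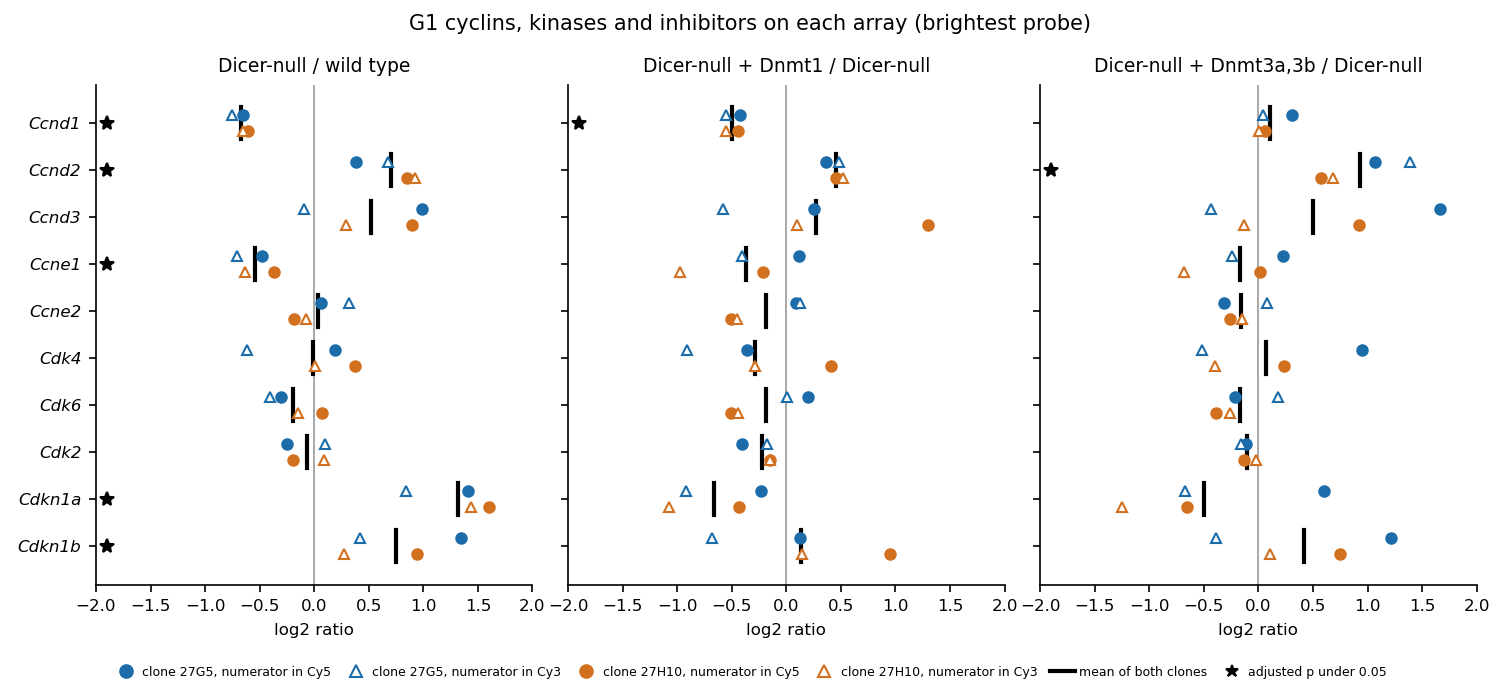
Log2 ratio of each of the 10 genes at its brightest probe on each array (x axis) in the 3 comparisons; circles have the first-named RNA in Cy5 and triangles in Cy3, colours mark the clones, bars the mean, and stars genes called at an adjusted p under 0.05. All 4 arrays lie on one side of 0 for the 5 genes called in Dicer-null cells, while Ccnd3, Cdk4 and Cdkn1b spread widely between dye orientations.

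Among the D-type cyclins, Ccnd1 and Ccnd2 moved in opposite directions. Ccnd1, whose product cyclin D1 is the D-type cyclin most responsive to growth signals, was measured at 10 replicate spots of a probe on mm7 chromosome 7_random at 7568179 to 7568238. Its ratio of Dicer-null to wild type was -0.65 and -0.75 on the arrays of clone 27G5 and -0.61 and -0.65 on those of clone 27H10. All 4 arrays lay within a narrow band below 0. The mean was -0.67 ± 0.05, 1.59-fold lower, with a 95% confidence interval of -0.85 to -0.48 and an adjusted p of 0.00173. Ccnd1 stayed called under all 12 alternative settings tried, the leave-one-out settings among them, with adjusted p from 0.00135 to 0.037. The 10 spots of an array lay close together, with an SD of 0.02 to 0.06 between them on the log2 scale.

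Ccnd2, encoding cyclin D2, was measured at 3 probes on chromosome 6. At the brightest, which lies at 127173178 to 127173237 on the minus strand, the ratio was 0.38 and 0.68 on the 27G5 arrays and 0.85 and 0.92 on the 27H10 arrays. All arrays lay above 0, and clone 27H10 was above clone 27G5. The mean was 0.71 ± 0.25, 1.63-fold higher (adjusted p = 0.0186). The other probes, at 127163669 to 127163728 and at 127154070 to 127154129, gave 0.81 ± 0.32 and 0.74 ± 0.20, so that the 3 probes differed by less than the spread of the clones. The call was lost without clone 27G5 (adjusted p = 0.0647), without clone 27H10 (0.194) and with the RNAs shared between arrays modelled (0.154), in a range of 0.0133 to 0.194 over the 12 alternatives.

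Ccnd3, encoding cyclin D3, was measured at a probe on chromosome 17 (45735858 to 45735917). Its ratio was 0.99 and -0.09 on the 27G5 arrays and 0.90 and 0.29 on the 27H10 arrays. The arrays with Dicer-null RNA in Cy5 gave the high values in both clones, and the arrays with it in Cy3 the low ones. The mean was 0.52 ± 0.10, and it did not pass (adjusted p = 0.0893, 95% confidence interval 0.02 to 1.02). The difference between dye orientations, 1.08 and 0.60, exceeded the mean.

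Of the E-type cyclins, Ccne1 fell and Ccne2 differed little. Ccne1, encoding cyclin E1, the main activator of Cdk2 at the start of S phase, had 2 probes, both placed on chromosome 7, minus strand, with 24 bases given as 34990690 to 34990713. The brighter probe read -0.48 and -0.70 on the 27G5 arrays and -0.37 and -0.63 on the 27H10 arrays, with a mean of -0.55 ± 0.07, 1.46-fold lower (adjusted p = 0.0243). That probe was saturated in 6 of its 24 channels, among them 2 of 4 for wild type and 3 of 6 for Dicer-null 27G5 RNA. The dimmer probe was saturated in no channel (0 of 24) and read -0.98 and -1.05 on the 27G5 arrays and -0.92 and -0.94 on the 27H10 arrays. All its arrays lay lower than any array of the saturated probe, and its mean of -0.97 ± 0.06 had an adjusted p of 0.0047 over all 28818 probes tested, of which 39.8% were called. At the brighter probe the call was lost with shared RNAs modelled (adjusted p = 0.163) and when either clone was left out. The lowest adjusted p over the 12 alternatives, 0.0052, was that of the unsaturated probe.

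Ccne2, encoding cyclin E2, went opposite ways in the clones. Its ratio was 0.06 and 0.32 on the 27G5 arrays and -0.18 and -0.07 on the 27H10 arrays, so that no array of one clone overlapped those of the other. The mean was 0.03 ± 0.23 (adjusted p = 0.90). A second Ccne2 probe on chromosome 4 gave 0.18 in clone 27G5 and -0.12 in clone 27H10. Such a split between the clones on all arrays was seen for 1 of the 10 genes and for 4.5% of all genes.

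Letters matching the seeds were searched within the probes, which are the stretches measured, on the probe strand. The motif AGCACTT matches the seed shared by most of the miR-290 and miR-302 microRNAs shown, and the motif GGCACTT that of miR-290a. The motif TGCACTT matches the seed of miR-291b, the motif TGCTGCT that of miR-15 and miR-16, and the motif CTACCTC that of let-7. Each was counted on its own. Of the 19 probes, 1 held a match, the brighter Ccne1 probe, with TGCTGCT from its base 37 on, as 0.544% of all probes did. It is shown with its flanks because Ccne1 is a published target of that family, and the capitals mark the match.
Ccne1 probe: ttttgtaaggTGCTGCTatgtctatca
The miR-290 and miR-302 motif occurred in 0.61% of all probes, that of miR-290a in 0.236%, that of miR-291b in 0.464% and that of let-7 in 0.306%, and each in none (0) of the 19. A missing match says only that the letters are not within these 60 bases.

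None of the 3 kinases passed the test against wild type. Cdk4, the partner of D-type cyclins, read 0.19 and -0.62 on the 27G5 arrays and 0.38 and 0.01 on the 27H10 arrays, with a mean of -0.01 ± 0.29 (adjusted p = 0.97). Cdk6, the other partner of D-type cyclins, was measured at 3 probes on chromosome 5. The brightest, at 3535293 to 3535352, read -0.30 and -0.41 on the 27G5 arrays and 0.07 and -0.15 on the 27H10 arrays, with a mean of -0.20 ± 0.22 (adjusted p = 0.40), and the others gave -0.05 and -0.09. Cdk2, the partner of E-type cyclins, read -0.25 and 0.10 on the 27G5 arrays and -0.20 and 0.09 on the 27H10 arrays, with a mean of -0.06 ± 0.01 (adjusted p = 0.55). Its second probe on chromosome 10 read 0.12 ± 0.18. The 95% confidence interval of Cdk2 ran from -0.25 to 0.12, while those of Cdk4 (-0.49 to 0.47) and Cdk6 (-0.61 to 0.22) leave room for larger changes.

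**Figure D2:**
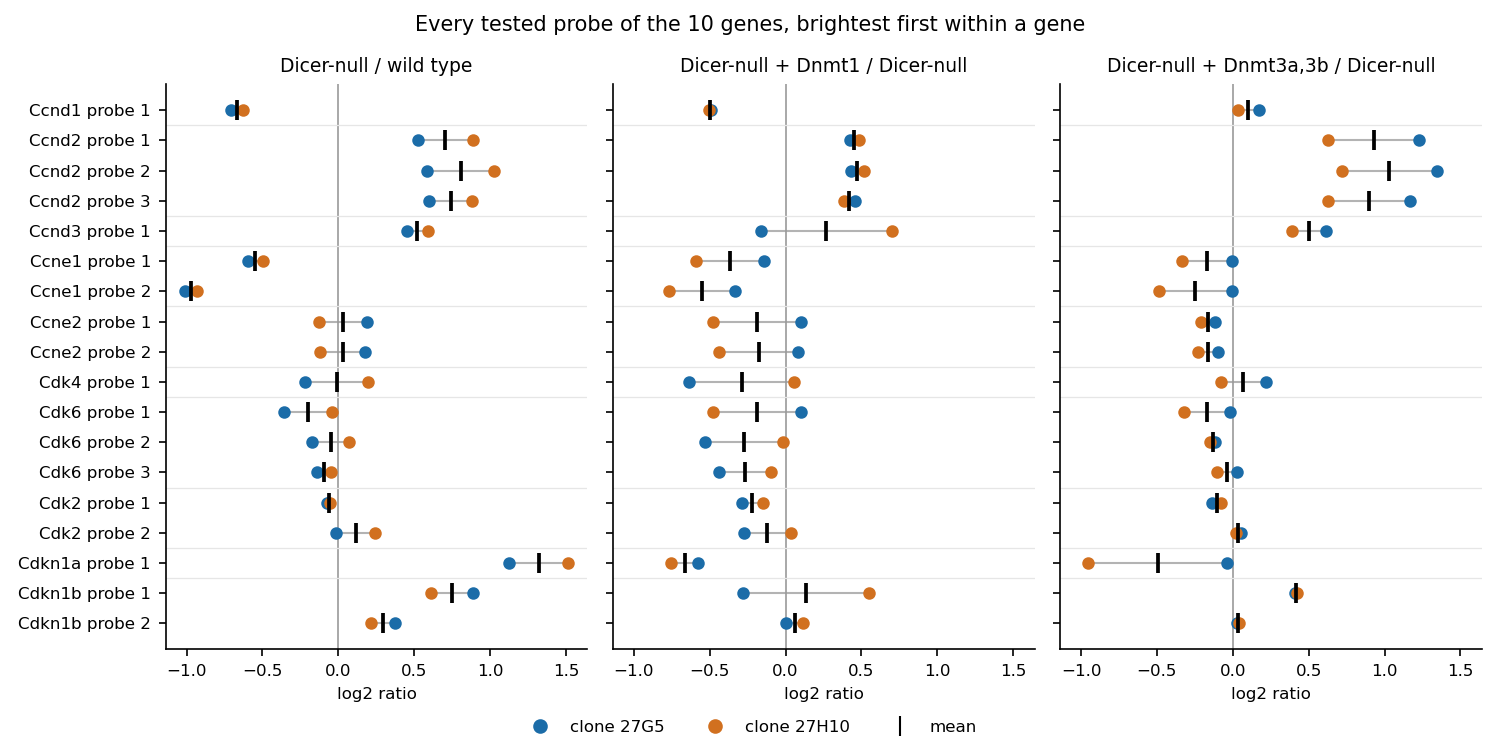
Log2 ratio (x axis) at each of the 18 tested probes of the 10 genes, from the brightest downwards within a gene, with a point for each clone and a bar for the mean, in the 3 comparisons. The 3 Ccnd2 probes lie close together, the second Ccne1 probe lies lower than the first, and the second Cdkn1b probe lies closer to 0 than the first.

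Both inhibitors rose in Dicer-null cells. Cdkn1a, a target of p53 that inhibits cyclin-Cdk2 complexes, had the largest mean change of the 10 genes. Its 10-spot probe on chromosome 17 (27293819 to 27293878) read 1.41 and 0.84 on the 27G5 arrays and 1.60 and 1.43 on the 27H10 arrays. All 4 arrays lay above 0, the lowest being the 27G5 array with Dicer-null RNA in Cy3, and the mean was 1.32 ± 0.28, 2.50-fold higher (adjusted p = 0.0066). The call was lost without clone 27H10 (adjusted p = 0.0875, the highest of 0.0031 to 0.0875 over 11 alternatives). The spots of an array spread with an SD of 0.03 to 0.06, less than the 0.57 by which the dye orientations of clone 27G5 differed.

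Cdkn1b, which holds quiescent cells in G1, was measured at 3 probes on chromosome 6 that did not agree in size. The array assigns the brightest of them to a cDNA record and the others to the RefSeq mRNA of the gene. The brightest, at 134939519 to 134939578, read 1.35 and 0.42 on the 27G5 arrays and 0.94 and 0.28 on the 27H10 arrays, with a mean of 0.75 ± 0.20, 1.68-fold higher (adjusted p = 0.0281). The second, with 10 spots at 134935407 to 134935465, read 0.37 on both arrays of clone 27G5 and 0.22 and 0.21 on those of clone 27H10. Its mean was 0.29 ± 0.11 (adjusted p = 0.031 over probes), it was well above background in 21 of 24 channels, and it showed almost no dye difference (-0.002 and 0.007 in this comparison). The third, at 134937910 to 134937969, was well above background in none (0) of 24 channels and was not tested. At the brightest probe the call was lost with shared RNAs modelled (adjusted p = 0.162), with no filter on dim probes (0.0501) and when either clone was left out. The lowest adjusted p over the 12 alternatives, 0.0206, was that of the mean over tested probes, at 0.52.

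The promoters of the inhibitors are shown because both genes rose, with the GC box GGGCGG, the letters bound by Sp1-type factors, in capitals where it or its complement CCGCCC occurs. Each run covers 250 bases before and 50 bases after the start of transcription in RefSeq (assembly GRCm38.p6). A promoter was found for 7 of the 10 genes.
Cdkn1a, chr17:29093519-29093818, plus strand: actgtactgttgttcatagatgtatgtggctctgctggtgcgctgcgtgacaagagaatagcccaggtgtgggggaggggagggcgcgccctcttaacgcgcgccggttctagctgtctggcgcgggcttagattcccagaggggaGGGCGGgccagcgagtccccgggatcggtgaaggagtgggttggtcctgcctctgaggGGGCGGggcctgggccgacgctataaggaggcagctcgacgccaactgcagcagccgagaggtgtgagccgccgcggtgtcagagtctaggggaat
Cdkn1b, chr6:134920151-134920450, plus strand: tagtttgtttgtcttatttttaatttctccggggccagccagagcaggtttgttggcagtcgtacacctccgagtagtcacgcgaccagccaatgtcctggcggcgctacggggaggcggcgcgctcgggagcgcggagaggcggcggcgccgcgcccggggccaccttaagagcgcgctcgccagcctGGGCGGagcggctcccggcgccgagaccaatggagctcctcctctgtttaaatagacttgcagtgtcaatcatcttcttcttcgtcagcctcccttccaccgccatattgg
The box occurred 2 times in the Cdkn1a and 1 time in the Cdkn1b promoter, and in 35.7% of 32851 promoters. The Cdkn1a promoter held 23 CpG sites and the Cdkn1b promoter 30, where the median promoter held 7. Promoters of genes that fell or were not called held these letters too: that of Ccne1 held 41 CpG sites and 4 boxes, that of Cdk2 25 and 6, that of Cdk4 22 and 3, that of Cdk6 27 and no box (0), and the Ccnd3 promoters 15 and 28 with 2 boxes each. A second Cdkn1a start, at chr17:29090729-29091028, had no box (0) and 2 CpG sites. Methylation was not measured, and which start was used in these cells cannot be read from the probes.

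In Dnmt1-labelled cells, Ccnd1 fell below the level of the Dicer-null parent and no other of the 10 genes passed. That is 1 of 10 genes called, lower, against 23% of all genes, 12% higher and 11% lower. On all 4 arrays 4 of the 10 genes had 1 sign (Ccnd1, Ccnd2, Cdk2 and Cdkn1a), against 46.6% of all genes. Ccnd1 read -0.43 and -0.55 on the 27G5 arrays and -0.45 and -0.56 on the 27H10 arrays. All arrays lay below 0 and the clones overlapped, with a mean of -0.49 ± 0.01, 1.41-fold lower (adjusted p = 0.0114). The call was lost when shared RNAs were modelled (adjusted p = 0.0763, the highest of 0.0094 to 0.0763 over 12 alternatives). Beside this fall, trophoblast markers were at a median of 1.72.

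The remaining D-type and E-type cyclins did not pass in Dnmt1-labelled cells. Ccnd2 read 0.37 and 0.48 on the 27G5 arrays and 0.45 and 0.52 on the 27H10 arrays. Its 4 arrays were nearly as close together as those of Ccnd1, and its mean was 0.45 ± 0.04 (adjusted p = 0.0998), with 0.47 and 0.42 at the other probes. The standard error of the fit, pooled over the comparisons, was 0.16 for Ccnd2 and 0.08 for Ccnd1. Ccnd3 read 0.25 and -0.58 on the 27G5 arrays and 1.3 and 0.10 on the 27H10 arrays, with a mean of 0.27 ± 0.61 (adjusted p = 0.38). Ccne1 averaged -0.37 ± 0.32 at the saturated probe (adjusted p = 0.107), and -0.55 ± 0.31 at the unsaturated probe, which passed narrowly over all probes (adjusted p = 0.0495; 22.8% of probes were called). On the unsaturated probe the arrays read -0.35 and -0.32 on the 27G5 arrays and -0.63 and -0.91 on the 27H10 arrays, all below 0. Ccne2 read 0.09 and 0.12 on the 27G5 arrays and -0.51 and -0.45 on the 27H10 arrays, again on opposite sides.

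Kinases and inhibitors did not pass in Dnmt1-labelled cells either. Cdkn1a read -0.23 and -0.92 on the 27G5 arrays and -0.43 and -1.07 on the 27H10 arrays. All arrays lay below 0, in the direction opposite to its rise in Dicer-null cells, with a mean of -0.66 ± 0.12 (adjusted p = 0.0862, 95% confidence interval -1.22 to -0.11). Cdkn1b at its brightest probe split by clone, at 0.13 and -0.69 on the 27G5 arrays and 0.95 and 0.14 on the 27H10 arrays, with a mean of 0.14 ± 0.58 (adjusted p = 0.66). Its 10-spot probe showed no such split, at 0.01 and 0.12 in the clones, with a mean of 0.06 ± 0.08. Cdk4 averaged -0.29 ± 0.49 and Cdk2 -0.22 ± 0.10 (adjusted p = 0.33 and 0.0900). Cdk6 at its brightest probe read 0.20 and 0.01 on the 27G5 arrays and -0.51 and -0.45 on the 27H10 arrays. Its other probes put clone 27G5 lower, at -0.53 against -0.02 for the one that spans 42285 bases of the genome and at -0.44 against -0.10 for the other. The probes thus gave opposite orders of the clones. The array assigns the brightest Cdk6 probe to a cDNA record and the other Cdk6 probes to the RefSeq mRNA of the gene. Over all genes, 11.4% had clones on opposite sides on all arrays in this comparison, and 2 of the 10 genes did, Ccne2 and Cdk6. Without clone 27G5 only the 27H10 ratio was left, at 0.70 for Ccnd3, -0.59 for Ccne1, 0.55 for Cdkn1b and -0.50 for Ccnd1. Without clone 27H10 only the 27G5 ratio was left, at -0.16, -0.15, -0.28 and -0.49. A call from 1 ratio takes its spread from the other comparisons.

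In Dnmt3a,3b-labelled cells, Ccnd2 rose further above its level in the Dicer-null parent and no other of the 10 genes passed. That is 1 of 10 genes called, higher, against 21.2% of all genes, 10.4% higher and 10.8% lower. On all 4 arrays 3 of the 10 genes had 1 sign (Ccnd1, Ccnd2 and Cdk2), against 44.1% of all genes, and in none (0) did the clones take opposite signs on all arrays, against 4.6%. Ccnd2 read 1.07 and 1.39 on the 27G5 arrays and 0.58 and 0.68 on the 27H10 arrays. All arrays lay above 0, and every array of clone 27G5 lay above those of clone 27H10. The mean was 0.93 ± 0.43, 1.90-fold higher (adjusted p = 0.0164), with 1.03 and 0.90 at the other probes. With shared RNAs modelled the call was lost (adjusted p = 0.0890), where 384 of all genes were called in place of 4251. The adjusted p ran from 0.0108 to 0.0890 over the alternatives that kept both clones. Leaving out a clone left 1 ratio, 0.63 for clone 27H10 or 1.23 for clone 27G5. Nearly all calls over all genes were lost there, so the loss of this call was not particular to Ccnd2. Trophoblast markers were at a median of 1.59 in this comparison.

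Ccnd1 stood close to the Dicer-null parent in Dnmt3a,3b-labelled cells, at 0.31 and 0.04 on the 27G5 arrays and 0.06 and 0.01 on the 27H10 arrays, with a mean of 0.10 ± 0.10 (adjusted p = 0.37, 95% confidence interval -0.08 to 0.29). Ccnd3 read 1.67 and -0.44 on the 27G5 arrays and 0.92 and -0.14 on the 27H10 arrays. The sign followed the dye in both clones, and the mean of 0.50 ± 0.16 did not pass (adjusted p = 0.131). Ccne1 averaged -0.17 ± 0.23 at the saturated and -0.25 ± 0.34 at the unsaturated probe (adjusted p = 0.287 over probes, of which 22% were called), and Ccne2 -0.16 ± 0.06.

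Cdkn1a differed between the clones in Dnmt3a,3b-labelled cells. It read 0.60 and -0.68 on the 27G5 arrays and -0.66 and -1.25 on the 27H10 arrays, with a mean of -0.50 ± 0.65 (adjusted p = 0.17). Clone 27G5 averaged -0.04 and clone 27H10 -0.95. Cdkn1b read 1.21 and -0.39 on the 27G5 arrays and 0.75 and 0.11 on the 27H10 arrays. Its clone means were close, at 0.41 and 0.43, while the dye orientations lay far apart, and the mean of 0.42 ± 0.01 did not pass (adjusted p = 0.182). Its second probe was at 0.03. Cdk4, Cdk6 and Cdk2 averaged 0.07 ± 0.21, -0.17 ± 0.22 and -0.11 ± 0.04, none of them called.

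The 2 overexpression labels were compared with each other within the same limma fit, in which each clone's Dicer-null RNA is shared by both sides. None (0) of the 10 genes and none (0%) of the 20048 genes passed at the adjusted threshold. An unadjusted p under 0.05 was found for 191 genes (0.953%), and Ccnd1 was the 1 gene among the 10. That share is smaller than the one the threshold of 0.05 would give with no difference at all. Ccnd1 was 0.60 higher in Dnmt3a,3b-labelled than in Dnmt1-labelled cells (95% confidence interval 0.33 to 0.86, unadjusted p = 0.001633 from limma). The adjusted p was 1.00 and lay between 0.408 and 1 over the alternatives. With the clone as a block, which pairs both labels through the Dicer-null RNA of each clone, again none (0) of the 20048 genes passed, and 215 genes had an unadjusted p under 0.05, Ccnd1 among them. Ccnd2 differed by 0.48 (-0.09 to 1.04). The intervals of Ccnd3 (-0.47 to 0.94), Cdkn1a (-0.61 to 0.95) and Cdkn1b (-0.40 to 0.97) were wide, and they do not show that the labels act alike.

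Summed over both steps, the distance from wild type was tested indirectly, since no array held wild-type RNA beside RNA of an overexpression label. In Dnmt1-labelled cells, 3 of 10 genes were called, 1 higher and 2 lower, against 29.6% of all genes, 15.4% higher and 14.2% lower: Ccnd1 at -1.16 (adjusted p = 0.0021), Ccnd2 at 1.16 (0.0169) and Ccne1 at -0.91 (0.0204). Ccnd1 was thus 2.24-fold lower than in wild type and Ccnd2 2.24-fold higher. The Ccne1 value, and that in the next comparison, are from the probe saturated in 2 of 4 wild-type channels, and its unsaturated probe gave -1.52 and -1.22. In Dnmt3a,3b-labelled cells, 5 of 10 genes were called, 3 higher and 2 lower, against 29.3%, 14.9% higher and 14.4% lower: Ccnd2 at 1.64 (0.0064), Cdkn1b at 1.17 (0.0286), Ccnd3 at 1.02 (0.0445), Ccne1 at -0.72 (0.0408) and Ccnd1 at -0.56 (0.0148). Ccnd2 was 3.11-fold higher than in wild type there. With shared RNAs modelled, the calls of Ccnd3 (adjusted p = 0.153), Ccne1 (0.0765) and Cdkn1b (0.0508) in Dnmt3a,3b-labelled cells were lost. Ccnd3 and Ccne1 each lost the call under 6 of 12 alternatives, with adjusted p from 0.0276 to 0.387 and from 0.0124 to 0.407. Averaging its tested probes put Cdkn1b at 0.75 there. Cdkn1a did not pass in either, at 0.66 (0.175) and 0.82 (0.104). Leaving out a clone left 1 ratio in each step. In the Dnmt3a,3b-labelled comparison the calls lost that way were lost over all genes too, and the loss was not particular to the 10 genes.

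The levels of each RNA were read from the single channels at 1 probe per gene. They are normalised log2 signals, which serve to order RNAs for a gene and not genes against each other. Wild type had 4 channels, each Dicer-null RNA 6 and each RNA of an overexpression label 2, all repeat measurements of 1 named RNA. A gap between such ranges is not a test, and such gaps were not counted over all genes. No slide held both wild-type RNA and RNA of an overexpression label. Ccnd1 was highest in wild type, at 11.89 to 12.01 over its 4 channels, and lowest in Dnmt1-labelled cells, at 10.66 to 10.68 in clone 27G5 and 10.70 to 10.82 in clone 27H10. Dicer-null and Dnmt3a,3b-labelled cells lay between them, at 11.11 to 11.25 and 11.26 to 11.43 in clone 27G5 and at 11.25 to 11.35 and 11.26 to 11.35 in clone 27H10. Within clone 27H10 these RNAs overlapped, and within clone 27G5 they came close without meeting.

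Ccnd2 was lowest in wild type, at 10.19 to 10.34. It rose through Dicer-null cells (10.65 to 11.04 in clone 27G5 and 11.15 to 11.47 in clone 27H10) and Dnmt1-labelled cells (11.40 to 11.42 and 11.78 to 11.99) to Dnmt3a,3b-labelled cells (12.10 to 12.41 and 11.85 to 12.16). In clone 27G5 no neighbours in that order overlapped, and in clone 27H10 the ranges of both labels did. Ccne1 at its unsaturated probe was highest in wild type, at 11.76 to 11.93. Both Dicer-null RNAs and Dnmt3a,3b-labelled cells of clone 27G5 overlapped between 10.79 and 11.03. Dnmt1-labelled cells of clone 27G5 (10.60 to 10.64), Dnmt3a,3b-labelled cells of clone 27H10 (10.41 to 10.48) and Dnmt1-labelled cells of clone 27H10 (10.03 to 10.35) followed without overlap.

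Cdkn1a was lowest in wild type, at 10.73 to 10.90, and highest in Dicer-null cells of clone 27H10, at 12.34 to 12.42. Neither range met another. The other RNAs overlapped in a chain, from 11.13 in Dnmt3a,3b-labelled cells of clone 27H10 to 12.30 in those of clone 27G5. Cdkn1b in wild type spread from 8.62 to 9.23, below every other RNA, the nearest being Dnmt1-labelled cells of clone 27G5 at 9.26 to 9.53. Ccnd3 in wild type (12.97 to 13.59) overlapped Dicer-null cells of both clones (13.21 to 13.98 and 13.58 to 13.91).

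**Figure D3:**
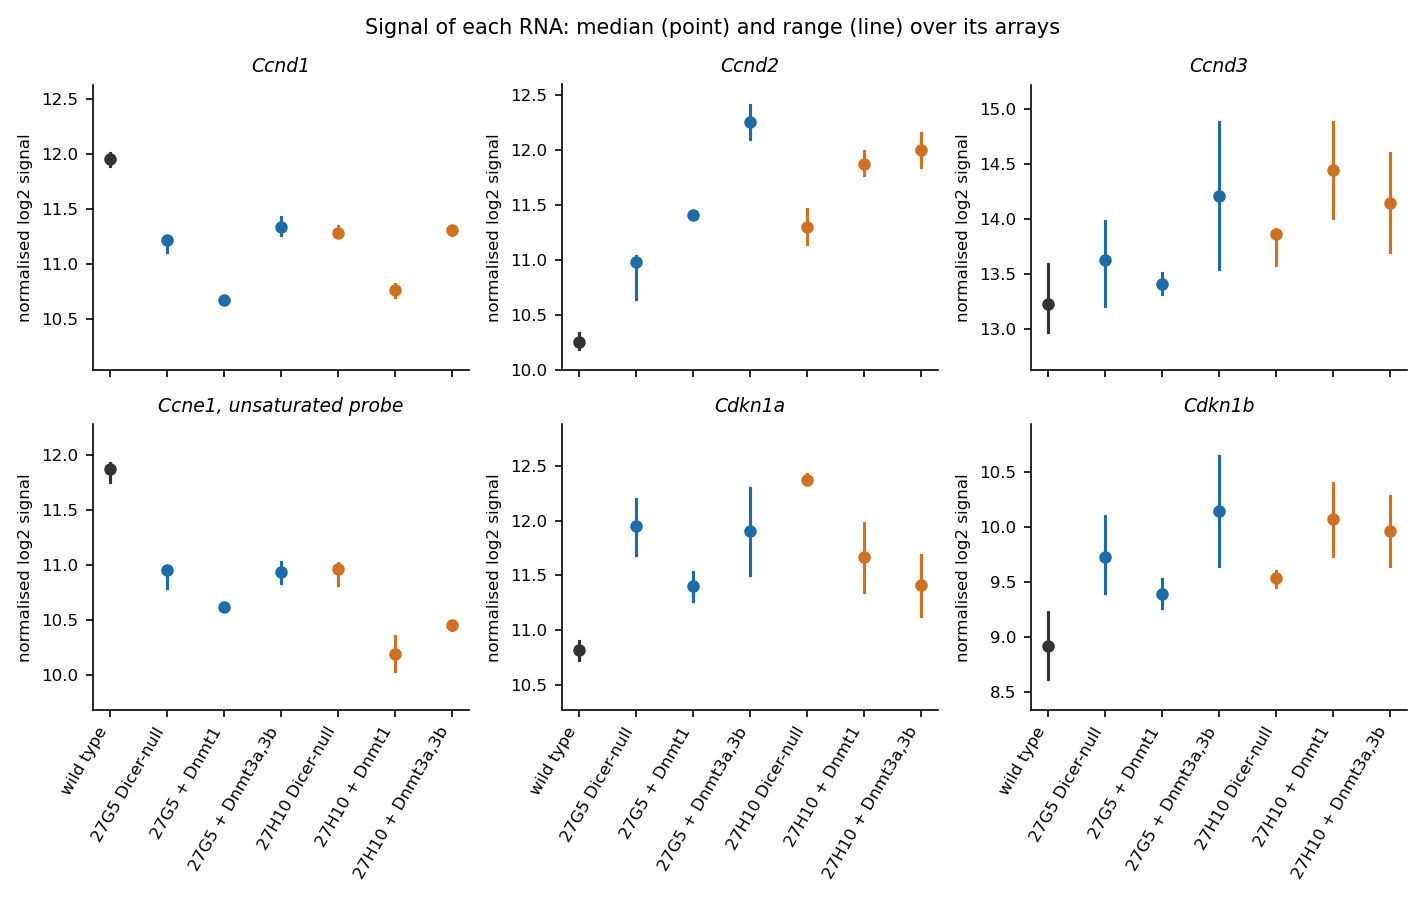
Normalised log2 signal (y axis) of 6 genes in each of the 7 RNAs, with the median as a point and the range over its arrays as a line. Wild type has the highest Ccnd1 and Ccne1 signal and the lowest Ccnd2, Cdkn1a and Cdkn1b signal, and Ccnd2 is highest in Dnmt3a,3b-labelled cells.

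Of the kinases, Cdk2 and Cdk6 kept within narrower bounds across the RNAs than Cdk4. The median signal of Cdk2 at its brightest probe ran from 9.25 in Dnmt1-labelled cells of clone 27G5 to 9.56 in wild type, and the ranges of these end RNAs, 9.19 to 9.32 and 9.38 to 9.63, did not meet. At its second probe wild type had the lowest median instead, 8.76, against 8.92 in Dnmt1-labelled cells of clone 27G5. Cdk6 medians at its brightest probe ran from 11.86 in Dnmt1-labelled cells to 12.34 in Dicer-null cells, both of clone 27H10. At its other probes the lowest medians, 10.02 and 6.98, were in Dnmt1-labelled cells of clone 27G5. Those of clone 27H10 read 10.80 and 7.55 there. Cdk4 medians ran from 13.16 to 14.12, and Dnmt1-labelled cells of clone 27G5 (13.09 to 13.24) stood below all other RNAs, which reached down to 13.53. Ccne2 was highest in Dnmt1-labelled cells of clone 27G5, at 10.97 to 11.00, and lowest in those of clone 27H10, at 9.86 to 9.96.

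The dye orientation left a mark that was specific to the probe. The difference between the array with the first-named RNA in Cy5 and its dye-swapped partner had the same sign in all 6 pairs for 8 of the 10 genes, a pattern seen for 53.6% of all genes. It was 0.60 to 2.11 for Ccnd3, 0.64 to 1.61 for Cdkn1b, 0.37 to 1.46 for Cdk4, 0.16 to 1.28 for Cdkn1a and 0.22 to 0.77 for Ccne1. It was small for Ccnd1, at 0.04 to 0.27, and below 0 for Ccnd2 (-0.32 to -0.07) and Ccne2 (-0.39 to -0.03). The median size of this difference over all genes was 0.15 to 0.35 by pair, with the largest in the Dnmt3a,3b pair of clone 27G5, where Ccnd3, Cdkn1b, Cdk4 and Cdkn1a also had their widest values. Averaging a pair cancels an effect that is equal on both arrays, and whether it was equal was not tested.

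**Figure D4:**
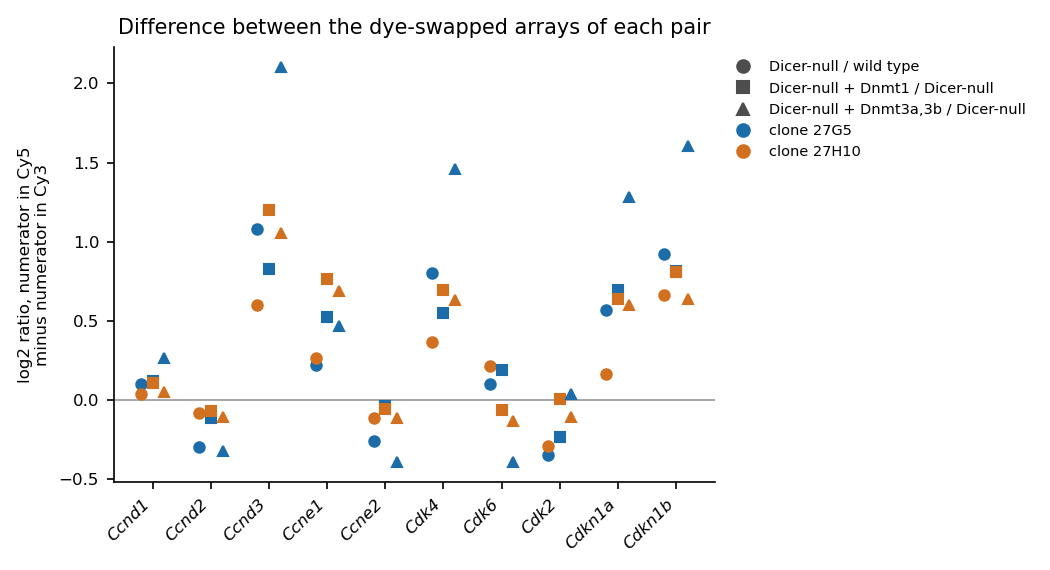
Log2 ratio with the first-named RNA in Cy5 minus that with it in Cy3 (y axis) for each of the 10 genes at its brightest probe, with 1 point for each of the 6 dye-swapped pairs. Ccnd3, Cdk4, Cdkn1a and Cdkn1b lie above 0 in all pairs, and Ccnd2 and Ccne2 below 0.

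Genes around the G1 machinery were described by lists. Their counts stand beside 20.4% higher and 20.1% lower of all genes in Dicer-null cells, 12% and 11% in Dnmt1-labelled cells, and 10.4% and 10.8% in Dnmt3a,3b-labelled cells. Of the 6 other inhibitors of cyclin-dependent kinases, 3 were higher and 1 lower in Dicer-null cells, with a median of 0.32 against 0.01 over all genes. Cdkn1c (p57), an imprinted inhibitor of the same family as Cdkn1a, fell by -2.66 ± 0.11 (adjusted p = 0.00043), and Cdkn3, a phosphatase that acts on Cdk2, rose by 0.99 ± 0.25. All 6 were called in Dnmt1-labelled cells, 5 higher and 1 lower, where 23% of all genes were called. Cdkn1c rose there by 2.11 ± 0.54 and Cdkn2a, which encodes p16 and p19Arf, by 0.85 ± 0.14. In Dnmt3a,3b-labelled cells 2 were higher and 1 lower, with Cdkn1c at 1.81 ± 0.20 and Cdkn2a at 0.82 ± 0.16. The gene that fell in both was Cdkn2b (p15), named after its values were seen, at -0.68 ± 0.28 and -0.69 ± 0.01. Cdkn1c, an abundant transcript of trophoblast tissue, moved in the direction of the trophoblast markers in each comparison. A link between them was not tested.

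Of 15 genes of kinase activation and cyclin turnover, 3 were higher and 3 lower in Dicer-null cells, near the 40.4% of all genes called, with a median of -0.06. Cks1b, a cofactor in the degradation of p27, read -0.60 ± 0.00 (adjusted p = 0.0049), and Cul1, the scaffold of the ubiquitin ligase that degrades cyclin E and p27, -0.43 ± 0.10. In both overexpression comparisons 4 were higher and none lower (0). Cul1 was at 0.41 ± 0.02 and 0.49 ± 0.07 there, 0.23 at the lowest of its probes in the second. Gsk3b, a kinase that marks cyclin D1 for degradation, was at 0.67 ± 0.08 in Dnmt1-labelled cells (0.30 at another probe), and Ddb1, an adaptor of another ubiquitin ligase, at 0.83 ± 0.21 in Dnmt3a,3b-labelled cells.

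Downstream, 3 of 13 genes of the Rb and E2F families were higher and 6 lower in Dicer-null cells, against 20.4% and 20.1% of all genes. Rbl2 (p130), which represses E2F targets, rose by 1.85 ± 0.03 (adjusted p = 0.00021), and Tfdp1, the dimer partner of E2F factors, fell by -1.32 ± 0.13. In each overexpression comparison 1 was higher and 2 lower, with E2f1 at 0.45 ± 0.03 and 0.39 ± 0.16 and E2f3 at -0.53 ± 0.19 and -0.58 ± 0.32 (-0.22 and 0.09 at the probes farthest from these). Of 19 measured E2F targets of S phase, 1 was higher and 2 were lower in Dicer-null cells, against the same shares. Pola1, a DNA polymerase subunit, rose by 0.59 ± 0.14, and Orc1, of the origin recognition complex, fell by -0.53 ± 0.13. Pola1 fell in both overexpression comparisons, by -0.55 ± 0.10 and -0.86 ± 0.05, and was the 1 gene of this list called there.

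Of 20 other cyclins and kinases, 3 were higher and 4 lower in Dicer-null cells, against 40.4% of all genes called in either direction. Cdk14 fell by -2.37 ± 0.13, and Ccnc, encoding cyclin C of the Mediator complex, read 0.91 ± 0.10, against -0.23 at its other probe. In Dnmt1-labelled cells 1 was higher and 1 lower, Ccnb2 at 0.27 ± 0.03 and Ccnc at -0.85 ± 0.14 (-0.21 at its other probe). In Dnmt3a,3b-labelled cells 2 were lower, Ccnc at -0.92 ± 0.08 (-0.31 at its other probe) and Ccnt2 at -0.53 ± 0.08.

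Of 20 targets of p53 other than Cdkn1a, 5 were higher and 5 lower in Dicer-null cells, against 20.4% and 20.1% of all genes, with a median of -0.36. Ei24 and Sesn1 rose by 1.61 ± 0.11 and 0.92 ± 0.01. In Dnmt1-labelled cells 1 was higher and 6 lower, against 12% and 11%, with Zmat3 at -0.51 ± 0.05 and Ei24 at -0.39 ± 0.03. In Dnmt3a,3b-labelled cells 1 was higher and 7 lower, against 10.4% and 10.8%, with Zmat3 at -0.62 ± 0.02 and Ddit4 at -0.53 ± 0.10.

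Among 5 published targets of the miR-290 family in the G1/S step, 4 were higher in Dicer-null cells and none lower (0), with a median of 1.32. They were Rbl2, Lats2 at 1.43 ± 0.35 (0.43 at the lowest of its 4 probes), Rbl1 and Cdkn1a. Rbl1, at 1.098 ± 0.07, was named after its values were seen. Of 6 published targets of let-7 or miR-15 and miR-16, 1 was higher (Ccnd2) and 2 lower (Ccnd1 and Ccne1), with a median of -0.26. In Dnmt1-labelled cells none (0) of the first list was called and 1 of the second was lower (Ccnd1). In Dnmt3a,3b-labelled cells Rbl2, at -0.37 ± 0.08 (-0.14 at its other probe), was the 1 gene of the first list called, and Ccnd2 the 1 gene of the second.

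**Figure D5:**
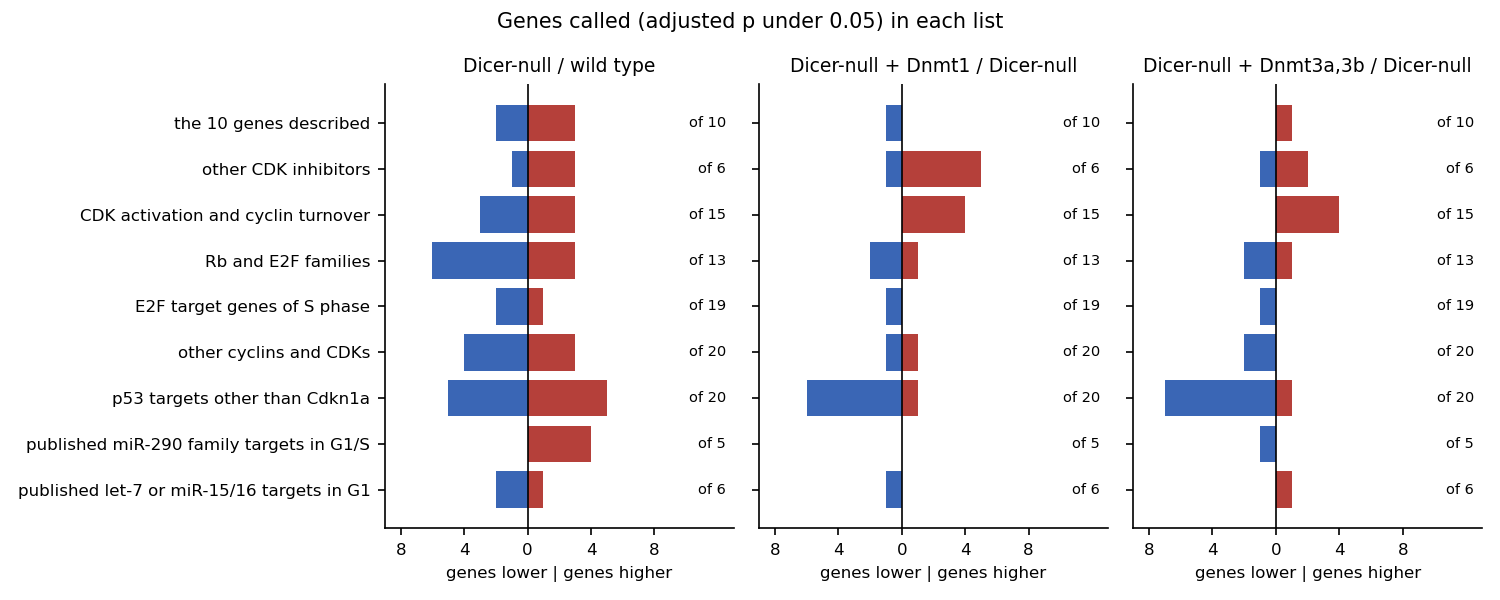
Number of genes called lower (left, blue) and higher (right, red) in each list in the 3 comparisons, with the number of genes tested at the right. All 6 other kinase inhibitors are called in Dnmt1-labelled cells, and few of the 19 E2F targets are called in any comparison.

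The genes whose pattern over the 6 ratios was nearest to that of 2 of the 10 genes were found by the root mean square difference. Nearest to Ccnd1 were Etf1 at 0.17, Aebp1 at 0.17 and Wdr74 at 0.17. Etf1 read -0.65 and -0.46 against wild type, -0.19 and -0.36 in Dnmt1-labelled and 0.09 and -0.09 in Dnmt3a,3b-labelled cells, so that its fall in Dnmt1-labelled cells was smaller than that of Ccnd1 in both clones. Nearest to Cdkn1a were Ifit1 at 0.14, Lama3 at 0.20 and Gbp9 at 0.20. Ifit1, an interferon-induced gene, read 1.17 and 1.49 against wild type, -0.35 and -1.01 in Dnmt1-labelled cells and -0.08 and -0.96 in Dnmt3a,3b-labelled cells. The clone difference that Ifit1 and Cdkn1a share in the last comparison was among the values by which Ifit1 was picked. These are distances over 6 ratios from the same arrays.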

How the data were processed

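Per the file headers, spots of the 12 arrays came with their mean intensity, the median intensity of the local background and a log10 ratio of dye-normalised signals (Agilent Feature Extraction 9.5.1.1 for 8 arrays, 9.1.3.1 for 4 with wild-type RNA). Flags for saturation and for signals well above background, which are neither levels nor ratios (other values), also came from the deposited files. The authors' deposited value table held log2 ratios. Its columns correlated with the scanner ratios, turned to the first-named cells, at r = 0.968 to 1, with column medians of -0.13, 0.17, -0.02, 0.13, -0.11, 0.14, -0.14 and 0.12 on overexpression arrays, and of -0.13, 0.11, -0.10 and -0.02 where wild-type RNA was used. Its centring and background steps stay unknown. There were 0 unused per-sample columns.

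From the intensities, limma 3.58.1 in R 4.3.3 corrected background (normexp, offset 50) and normalised ratios by loess within arrays. The unflagged spots of each probe were averaged, each dye-swapped pair was turned and averaged to 1 ratio, and a gene took its brightest probe. A probe was tested when it was present on all 12 arrays and well above background on both arrays of at least 1 RNA of a pair. The 6 ratios were fitted with 3 coefficients and eBayes (3 residual degrees of freedom), and the fit was tested on simulated data. Levels per RNA were single-channel values after loess and Aquantile scaling. Probe positions are on mm7 (NCBI35), for which no gene annotation was used, so exon or UTR was not assigned. Of the 41174 probes, 22951 took their name from a RefSeq accession and 18223 kept that of the array.

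The wild-type cells were 1 control RNA, whose own spread is left out of p, and p measures only the spread between these samples, which may be technical, since no separate cultures are named. The number of arrays limits the precision. The genes and lists were chosen with earlier results of these data known. Named besides the 10 genes were up to 2 called genes of each list in each comparison, by the moderated statistic, 3 genes nearest in pattern to Ccnd1 and to Cdkn1a, and Dicer1 with the methyltransferases as label checks. Of 27 named list results with several probes, 9 had probes more than 2 times apart and 3 of opposite sign. There were 12 alternatives (11 for Cdkn1a, whose spot in the value table carried outlier flags), 1 of them (the brightest probe without saturation) chosen after seeing the data. The clone block for Dnmt3a,3b against Dnmt1 was also added after seeing the data.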

Additional observations from a re-analysis of the deposited data

Results flagged for a closer look

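Clones 27G5 and 27H10 went opposite ways on all of their arrays in 3 results. Ccne2 read 0.19 in clone 27G5 and -0.129 in clone 27H10 in Dicer-null cells over wild type. In Dnmt1-labelled over Dicer-null cells, Ccne2 read 0.105 and -0.478, and Cdk6 read 0.104 and -0.478. The difference between the clones was not tested in any of them. The second Ccne2 probe split the clones in the same direction, and the other Cdk6 probes, which are those of the RefSeq mRNA, did not.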

How the results depend on the processing

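Pairing by replicate number could not be fitted, since the numbers 1 and 2 mark the dye orientations of the same 2 RNAs, which were averaged to 1 ratio before the fit. Pairing by clone could be fitted for Dnmt3a,3b against Dnmt1: with the clone as a block, 0 of the 10 genes and 0 of all genes were called, as without it. Leaving out a clone left 1 ratio, that of the other clone, in each comparison concerned. Calls made that way take their spread from the remaining comparisons. Counts among the 10 genes moved by over 1.5 times as follows. Leaving out a clone's ratios gave 1 to 2 calls in place of 5 over wild type, 1 (without clone 27H10) to 4 (without clone 27G5) in place of 1 for Dnmt1 over Dicer-null, 0 in place of 1 for Dnmt3a,3b over Dicer-null, 1 (without clone 27H10) to 4 (without clone 27G5) in place of 3 for Dnmt1 over wild type, and 0 in place of 5 for Dnmt3a,3b over wild type. With the RNAs shared between arrays modelled, the counts were 2 over wild type, 0 for Dnmt1, 0 for Dnmt3a,3b and 2 for Dnmt3a,3b over wild type, which was 3 with no filter on dim probes and 3 with the scanner's log ratio. No result of the 10 genes reversed a called direction. Over the whole table the calls fell from 8109, 4614 and 4251 in the 3 comparisons, and 5932 and 5870 in those summed to wild type, to 1944, 480, 384, 2739 and 2714 with shared RNAs modelled. They were 3487, 4698, 4, 3330 and 0 without clone 27G5 and 3120, 2340, 0, 2203 and 0 without clone 27H10, where fewer samples enter. The cause of the other shifts was not tested. With median centring in place of loess, the median of all genes lay between -0.013 and 0.03 over the 6 ratios, against 0.006 to 0.011 with loess.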
